A study of Mus musculus with 20 samples.

Results

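The imprinted genes of mouse embryonic stem cells were examined in the list of open chromatin regions (peaks) of an ATAC-seq experiment, an assay in which the Tn5 transposase inserts adapters where DNA is accessible. The members were 41 imprinted genes, chosen by name, in 18 clusters or single loci, of which 15 are expressed from the maternal allele and 25 from the paternal allele. Gnas was kept apart because its transcripts differ in the expressed allele. A peak was assigned to a gene when it overlapped the gene (GENCODE M21, mm10, which is GRCm38) or lay within 20000 bp of it. These rules selected 242 of the 102373 listed peaks, 90 of them at maternally and 158 at paternally expressed genes, with 10 at both and 14 at Gnas.

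The cells were ZHBTc4 embryonic stem cells, in which the endogenous Pou5f1 (Oct4) gene is silenced by doxycycline (dox). They carried lentiviral constructs under the constitutive PGK promoter, encoding YPet-MD and either SNAP-MD-OCT4, whose MD fragment causes degradation at mitosis, or SNAP-MD*-OCT4, which carries the inactive fragment MD*. Each of the 2 lines was treated with 1 µg/ml dox for 40 h and sorted into EG1, LG1, S and SG2 fractions of the cell cycle, or was left unsorted and without dox, with 2 replicates in each of 10 groups. The lines were populations sorted for similar SNAP levels. Per the study, its embryonic stem cells were routinely grown with serum, LIF and the inhibitors CHIR99021 and PD184352. The list merges the peaks of the 16 dox-treated libraries and gives a position and no value for any library, so neither the constructs, the phases nor the 4 untreated libraries could be compared, and no depth or replicate error stands behind a single peak. The list does not tell the parental alleles apart. The expressed allele of each gene is a general label that was not measured in these cells. Absence from the list does not show closed chromatin, and whether the list as analysed here holds every merged peak was not established.

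Imprinted genes are expressed from the allele inherited from only one parent. Their expression is governed by imprinting control regions, stretches of DNA that are methylated in one parental germline and keep that methylation in the embryo, and most of these lie at the promoter of a paternally expressed transcript. In embryonic stem cells the zinc finger protein ZFP57 binds a methylated hexamer in control regions, whereas the insulator protein CTCF binds the unmethylated copy of the H19 control region.

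The control regions were considered first. Their positions and methylated alleles were taken from general knowledge, since no list of them was available. A window was placed around each of 15 control regions: 1000 bp either side of every annotated start of the anchor transcript for the 13 regions at promoters, 2000 to 4000 bp upstream of H19, and 10000 to 16000 bp upstream of Meg3. A listed peak overlapped 11 of the 15 windows, with 22 peaks in all. All 11 were among the 13 windows at promoters. As background, a peak within 1000 bp of a start was listed for 70.4% of all protein-coding and 36.5% of all long non-coding genes. The share of 11 in 13 was above both, but the windows are few and no test was made. The windows with a peak were those of Kcnq1ot1, Peg3, Peg10, Nap1l5, Snrpn, Nespas, Nnat, Plagl1, Airn, Impact and Zrsr1. The 4 windows with no listed peak were those of H19, Meg3, Mest and Peg13. The 22 peaks are called control region peaks below. Because every annotated start had a window, not all of them need lie in a control region. Those at Plagl1 were centred 491, 30528 and 56796 bp from its 5′ end. Those at Nespas were centred 177, 10394 and 11048 bp from its 5′ end, and the farther 2 are also at Gnas starts. By methylated allele, a peak was listed at 11 of the 13 regions methylated on the maternal allele and at 0 of the 2 methylated on the paternal allele. As every promoter-type region is of the maternally methylated kind, the methylated allele and the kind of region cannot be told apart.

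Stretches of 4 control region peaks are shown because they range from several copies to none of the ZFP57 hexamer TGCCGC, which stands in capitals on either strand (TGCCGC or its reverse complement). All come from GRCm38 and are written on the plus strand. They are at most 300 bases long, overlap no exon of a protein-coding gene and were taken where the peak holds the most hexamers. The stretch at Snrpn is chr7:60004307-60004606, that at Airn chr17:12742331-12742630, that at Plagl1 chr10:13091025-13091113 and that at Kcnq1ot1 chr7:143296539-143296838.
Snrpn: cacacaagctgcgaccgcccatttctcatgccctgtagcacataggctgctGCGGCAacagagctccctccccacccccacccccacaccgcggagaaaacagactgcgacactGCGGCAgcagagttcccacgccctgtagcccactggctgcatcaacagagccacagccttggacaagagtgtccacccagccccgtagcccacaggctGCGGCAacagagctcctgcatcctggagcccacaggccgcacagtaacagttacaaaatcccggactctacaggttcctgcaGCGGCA
Airn: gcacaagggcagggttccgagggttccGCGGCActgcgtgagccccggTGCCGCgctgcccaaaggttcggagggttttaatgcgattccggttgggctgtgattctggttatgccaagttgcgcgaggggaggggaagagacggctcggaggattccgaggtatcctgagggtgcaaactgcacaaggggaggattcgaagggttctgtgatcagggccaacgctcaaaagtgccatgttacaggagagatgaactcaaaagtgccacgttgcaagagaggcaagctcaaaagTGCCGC
Plagl1: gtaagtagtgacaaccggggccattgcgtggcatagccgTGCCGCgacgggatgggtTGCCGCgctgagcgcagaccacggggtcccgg
Kcnq1ot1: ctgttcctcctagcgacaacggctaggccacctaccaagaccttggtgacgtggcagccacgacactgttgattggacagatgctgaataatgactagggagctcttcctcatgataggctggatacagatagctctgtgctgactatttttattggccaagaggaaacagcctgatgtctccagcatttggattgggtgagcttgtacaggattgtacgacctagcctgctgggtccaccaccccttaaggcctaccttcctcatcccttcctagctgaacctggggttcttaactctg

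The printed Snrpn stretch holds 4 hexamers, the Airn stretch 3, the Plagl1 stretch 2 and the Kcnq1ot1 stretch 0. Snrpn encodes a small nuclear ribonucleoprotein, and its whole peak, chr7:60003984-60004805 in an intron, is 822 bp wide and has 7 hexamers. Only 0.0857% of all promoter-proximal peaks (those within 1000 bp of an annotated start) have at least as many hexamers for their width as this one. The Snrpn peak was picked for its hexamers and is not the highest by this measure. The 163 bp Plagl1 peak, with 2, and the 575 bp Nap1l5 peak, with 5, hold more for their width. A 312 bp peak at chr7:60004905-60005216 adds 2 hexamers. It covers an internal annotated start of Snrpn, far from the 5′ end of the annotated gene. Plagl1 encodes a zinc finger protein that restrains growth, and of its 3 start-site peaks the narrowest, the 163 bp peak at chr10:13090951-13091113, holds the 2 hexamers printed, whereas the 1327 bp and 574 bp peaks hold 0.

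Over the 22 control region peaks, 9 had the hexamer in their central 300 bp, or 40.9% (95% Wilson interval 23.3 to 61.3%, counting error only). The background was 19.8% of all promoter-proximal peaks and 8.95% of all listed peaks. At least 2 hexamers in the central 300 bp were found in 6 of the 22 (27.3%), beside 3.68% of promoter-proximal peaks. Counted over whole peaks, control region peaks had 2.11 hexamers per kb and promoter-proximal peaks 0.726 per kb. The 41 start-site peaks of imprinted genes that lay outside the windows had the hexamer at 14.6% (6.88 to 28.4%), whose interval includes the promoter-proximal share. These 41 are not free of control regions. They include peaks at internal starts of Grb10 and Inpp5f, described below, with 3 hexamers each in the central 300 bp. Anywhere in the peak, the hexamer was in 12 of the 22 (54.5%, 34.7 to 73.1%), beside 36.5% of promoter-proximal peaks, which lies within that interval. By region, 9 of 11 had it in a peak, with Kcnq1ot1 and Zrsr1 the exceptions, but 6 of the 11 regions had 2 or more peaks. No background was computed for this count, and sequence outside the peaks was not searched in these 11. The whole windows with no listed peak held 5 hexamers at H19, 10 at Meg3, 14 at Mest and 6 at Peg13. The letters say nothing about binding of ZFP57 or about methylation, which were not measured in this list.

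**Figure D1:**
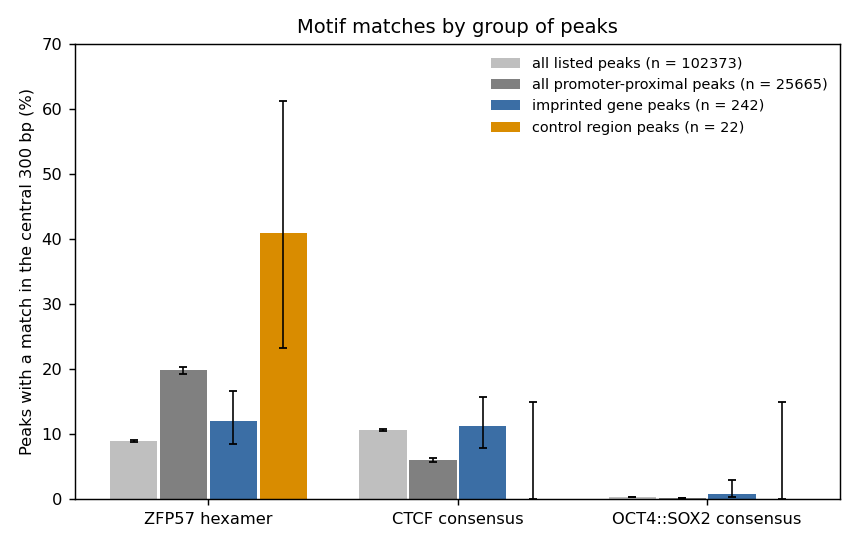
Share of peaks (%) with a match in the central 300 bp for the ZFP57 hexamer, the CTCF consensus (up to 1 mismatch) and the OCT4::SOX2 consensus (up to 2 mismatches), in 4 overlapping groups of peaks, with 95% Wilson intervals that cover counting error only. The hexamer bar of the 22 control region peaks stands at 40.9%, above the 19.8% of promoter-proximal peaks, and no control region peak has a match to either of the other motifs.

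In width and CpG content, the control region peaks lay within the range of other promoter peaks. Their median width was 621.5 bp (95% order-statistic interval 312 to 1018 bp, n = 22), beside 815 bp for all promoter-proximal peaks and 1101 bp (660 to 1295 bp, n = 41) for the start-site peaks of imprinted genes outside the windows. The median ratio of observed to expected CpG in the central 300 bp was 0.623, beside 0.62 for all promoter-proximal peaks and 0.26 for all listed peaks. Single peaks ranged from 163 bp at Plagl1 to 2475 bp at Peg3 in width. In CpG ratio they ranged from 0.103 at one Airn peak to 0.933 at one peak in the Nespas window. The latter is also at a Gnas start and is centred 10394 bp from the Nespas 5′ end.

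**Figure D2:**
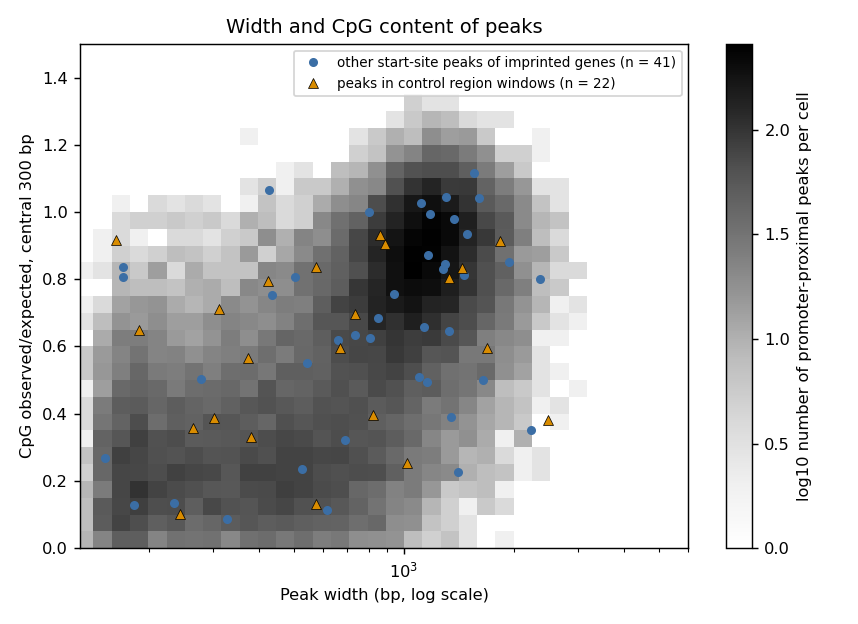
Peak width (bp, log scale) against the CpG observed/expected ratio of the central 300 bp for the 22 control region peaks (triangles) and the other 41 start-site peaks of imprinted genes (circles), over a grey density of all promoter-proximal peaks. The control region peaks are spread from 163 to 2475 bp wide and from 0.103 to 0.933 in CpG ratio, and the widest of them, at Peg3, has a ratio of 0.382.

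The Peg3 control region stood apart in its sequence. Peg3 encodes a zinc finger protein and is transcribed away from Usp29, a ubiquitin protease gene, from a shared promoter. A 2475 bp peak, chr7:6727256-6729730, lay in an intron of Peg3, 688 bp from the nearest annotated start, and was the widest of the 242 peaks. It contained the core of the YY1 motif, AAGATGGC on either strand, 11 times, always on the strand opposite to Peg3 transcription. No other listed peak reached 11, and the next highest held 7. Among all listed peaks 3.79% had the core at all and 0.232% had it at least 2 times. This motif was looked for after the sequence had been seen. The 300 bp with the most copies, chr7:6727845-6728144 on the plus strand of GRCm38, holds 3 of them, in capitals.
Peg3: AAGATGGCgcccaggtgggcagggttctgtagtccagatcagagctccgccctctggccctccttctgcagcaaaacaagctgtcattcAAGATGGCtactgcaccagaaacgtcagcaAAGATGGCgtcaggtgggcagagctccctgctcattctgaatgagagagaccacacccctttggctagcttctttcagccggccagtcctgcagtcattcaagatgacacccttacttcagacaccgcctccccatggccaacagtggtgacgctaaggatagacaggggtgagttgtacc
A separate 188 bp peak, chr7:6730308-6730495, covered the start itself and had 0 copies of the core.

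The H19 control region has several CTCF sites, and these were located in the reference because no listed peak covers them. The window, chr7:142580143-142582143, had 4 matches to the 14-base consensus of those sites with at most 1 mismatch. They lay 2166, 2621, 3647 and 3891 bp upstream of the H19 start, all on the strand of H19, and are printed on that strand with 10 bases on each side and the match in capitals, from the nearest to the farthest (chr7:142580299-142580332, chr7:142580754-142580787, chr7:142581780-142581813 and chr7:142582024-142582057).
H19 site 1: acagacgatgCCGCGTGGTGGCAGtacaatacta
H19 site 2: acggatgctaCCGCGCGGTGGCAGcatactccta
H19 site 3: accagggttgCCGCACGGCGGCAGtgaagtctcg
H19 site 4: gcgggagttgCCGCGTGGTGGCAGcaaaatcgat
The third site has 1 mismatch and the others 0. The nearest listed peak was 28751 bp from the window, and the peak-free stretch around it was 72.7 kb long. Stretches at least this long make up 7.06% of those between neighbouring peaks of the list. The other windows with no peak lay in longer stretches, of 144.7 kb at Peg13, 201.9 kb at Mest and 296.0 kb at Meg3. The annotated starts of Mest and Rtl1, and some of those of Dlk1, were the only starts of protein-coding genes in the stretches around these 4 windows.

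At the genes themselves, peaks were about as frequent as at other genes. The 41 imprinted genes had a median of 5 peaks (95% order-statistic interval 3 to 9), and all 21938 protein-coding genes also had a median of 5. Scaled to the length of the gene with its flanks, the medians were 0.719 and 0.716 peaks per 10 kb. The 34 protein-coding members had a median of 6.5 peaks and the 7 non-coding members a median of 1, beside 3 for all long non-coding genes. At least 1 peak within 20000 bp was listed for 36 of the 41, beside 87.3% of all protein-coding and 77.7% of all long non-coding genes.

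**Figure D3:**
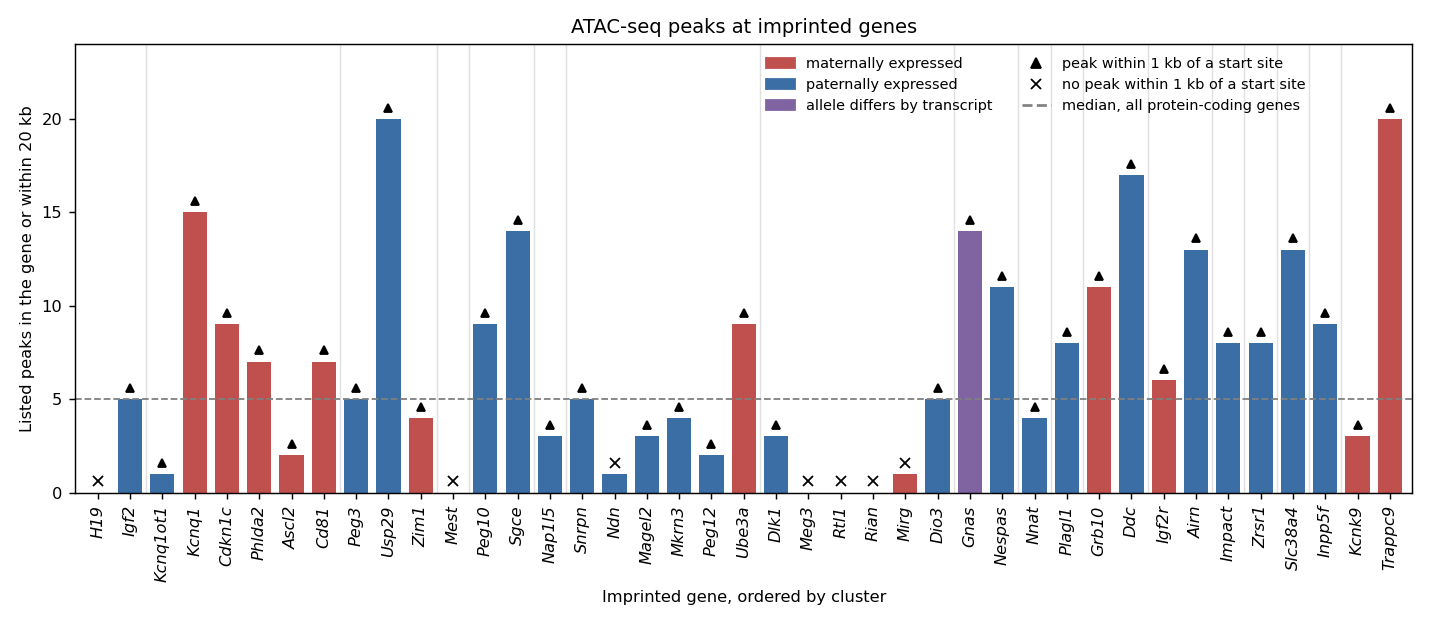
Listed peaks in each imprinted gene or within 20 kb of it (bars, coloured by expressed allele and ordered by cluster), with a triangle where a peak lies within 1 kb of an annotated start and a cross where none does. H19, Mest, Meg3, Rtl1 and Rian have 0 peaks, Usp29 and Trappc9 have 20 each, and the dashed line is the median of 5 over all protein-coding genes.

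A peak within 1000 bp of an annotated start was listed for 34 of the 41 genes. Among the protein-coding members it was 31 of 34, beside 70.4% of all protein-coding genes, and among the non-coding members 3 of 7 (Kcnq1ot1, Nespas and Airn), beside 36.5% of long non-coding genes. The 7 genes with no start-site peak were H19, Meg3, Rian and Mirg, which are non-coding RNAs, Mest, a hydrolase gene, Rtl1, a retrotransposon-derived gene needed in the placenta, and Ndn, a MAGE family gene expressed in neurons. Ndn had 1 peak, chr7:62347965-62349316, 1352 bp wide and in its coding exon, 1395 bp from the start. Mirg, which hosts miRNAs, had 1 peak of 258 bp, 1962 bp from its nearest annotated start. The remaining 5 of these genes had no peak within 20000 bp. With the 5′ end of the gene as the only start considered, 30 of the 41 genes had a start-site peak, beside 66.1% of all protein-coding genes.

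The maternally and paternally expressed genes were then compared. The 15 maternally expressed genes had a median of 6 peaks and the 25 paternally expressed genes a median of 5. Per 10 kb the order turned, with 0.471 for maternally and 0.751 for paternally expressed genes, whose median lengths were 30.7 and 16.1 kb. The ranges overlapped throughout, from 0 to 20 peaks in each set. A start-site peak was listed for 11 of 15 maternally expressed genes (73.3%) and for 22 of 25 paternally expressed genes (88.0%). With the 5′ end of the gene as the only start considered, the counts were 11 of 15 and 18 of 25, so the direction of the difference did not hold. The 4 maternally expressed genes without a start-site peak were all non-coding, and all 11 protein-coding ones had such a peak. Genes in a cluster share peaks and are not independent, and no test was made.

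**Figure D4:**
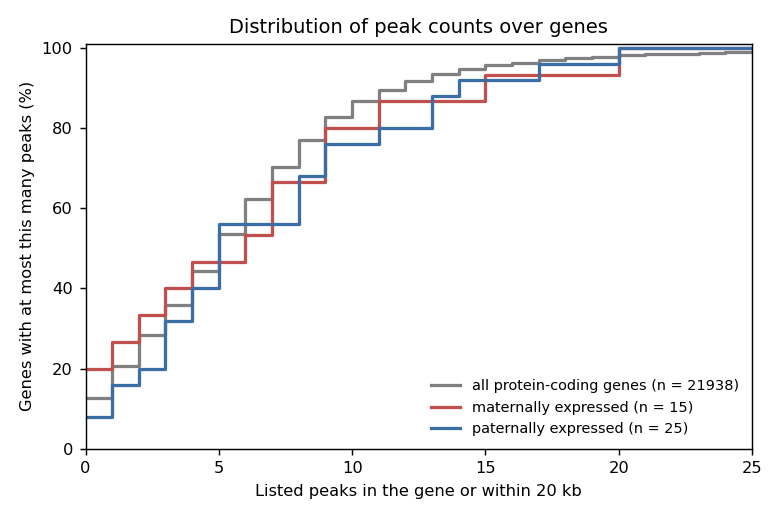
Percentage of genes with at most the number of peaks on the horizontal axis, for 15 maternally expressed genes, 25 paternally expressed genes and all 21938 protein-coding genes. The curves cross several times, with medians of 6, 5 and 5 peaks.

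The start-site peaks were also set side by side in width, with no test. Those of maternally expressed genes had a median width of 1276 bp (95% order-statistic interval 732 to 1491 bp, n = 17 peaks) and those of paternally expressed genes 679.5 bp (436 to 888 bp, n = 42 peaks). These intervals overlap, and several paternally expressed genes have more than 1 such peak. With only the widest start-site peak of each gene, the medians were 1327 bp (1101 to 1939 bp, n = 11 genes) and 1144 bp (846 to 1640 bp, n = 22 genes). The median CpG ratios of all start-site peaks in the central 300 bp were 0.831 and 0.607. The widest at maternally expressed genes were 2359 bp at Ascl2, a trophoblast transcription factor gene, 1939 bp at Kcnk9, a potassium channel gene, 1608 bp at Grb10, a growth factor receptor adaptor gene, 1554 bp at Ube3a, a ubiquitin ligase gene, and 1491 bp at Phlda2, a gene that restrains placental growth. Those at paternally expressed genes reached 2475 bp at Peg3 and Usp29, 2225 bp at Igf2, 1826 bp at Impact, 1681 bp at Nespas and 1640 bp at Ddc. The anchors are paternally expressed transcripts. All 22 control region peaks, 2 of them also at Gnas starts, are therefore among the 42 of the paternal set. The other 20 had a median width of 750.0 bp (436 to 1152 bp) and a median CpG ratio of 0.584.

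Several loci showed how the peaks lie. In the Kcnq1 cluster, 36 peaks were listed within 20000 bp of its 6 genes. Kcnq1ot1, the antisense RNA that silences the cluster in cis, had a single peak along its 93.1 kb, the 1018 bp peak chr7:143296180-143297197 over its start. A stretch of 117.0 kb with no listed peak began at this peak and reached past the other end of Kcnq1ot1. Kcnq1, the potassium channel gene in whose intron Kcnq1ot1 starts, had 15 peaks. Cdkn1c, which encodes the cyclin-dependent kinase inhibitor p57, had 9 peaks at 2.11 per 10 kb, the highest density of the 41 genes, and 2 of them, 1160 and 1276 bp wide, covered its starts. Phlda2 and the tetraspanin gene Cd81 had 7 each, and Ascl2 had 2.

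**Figure D5:**
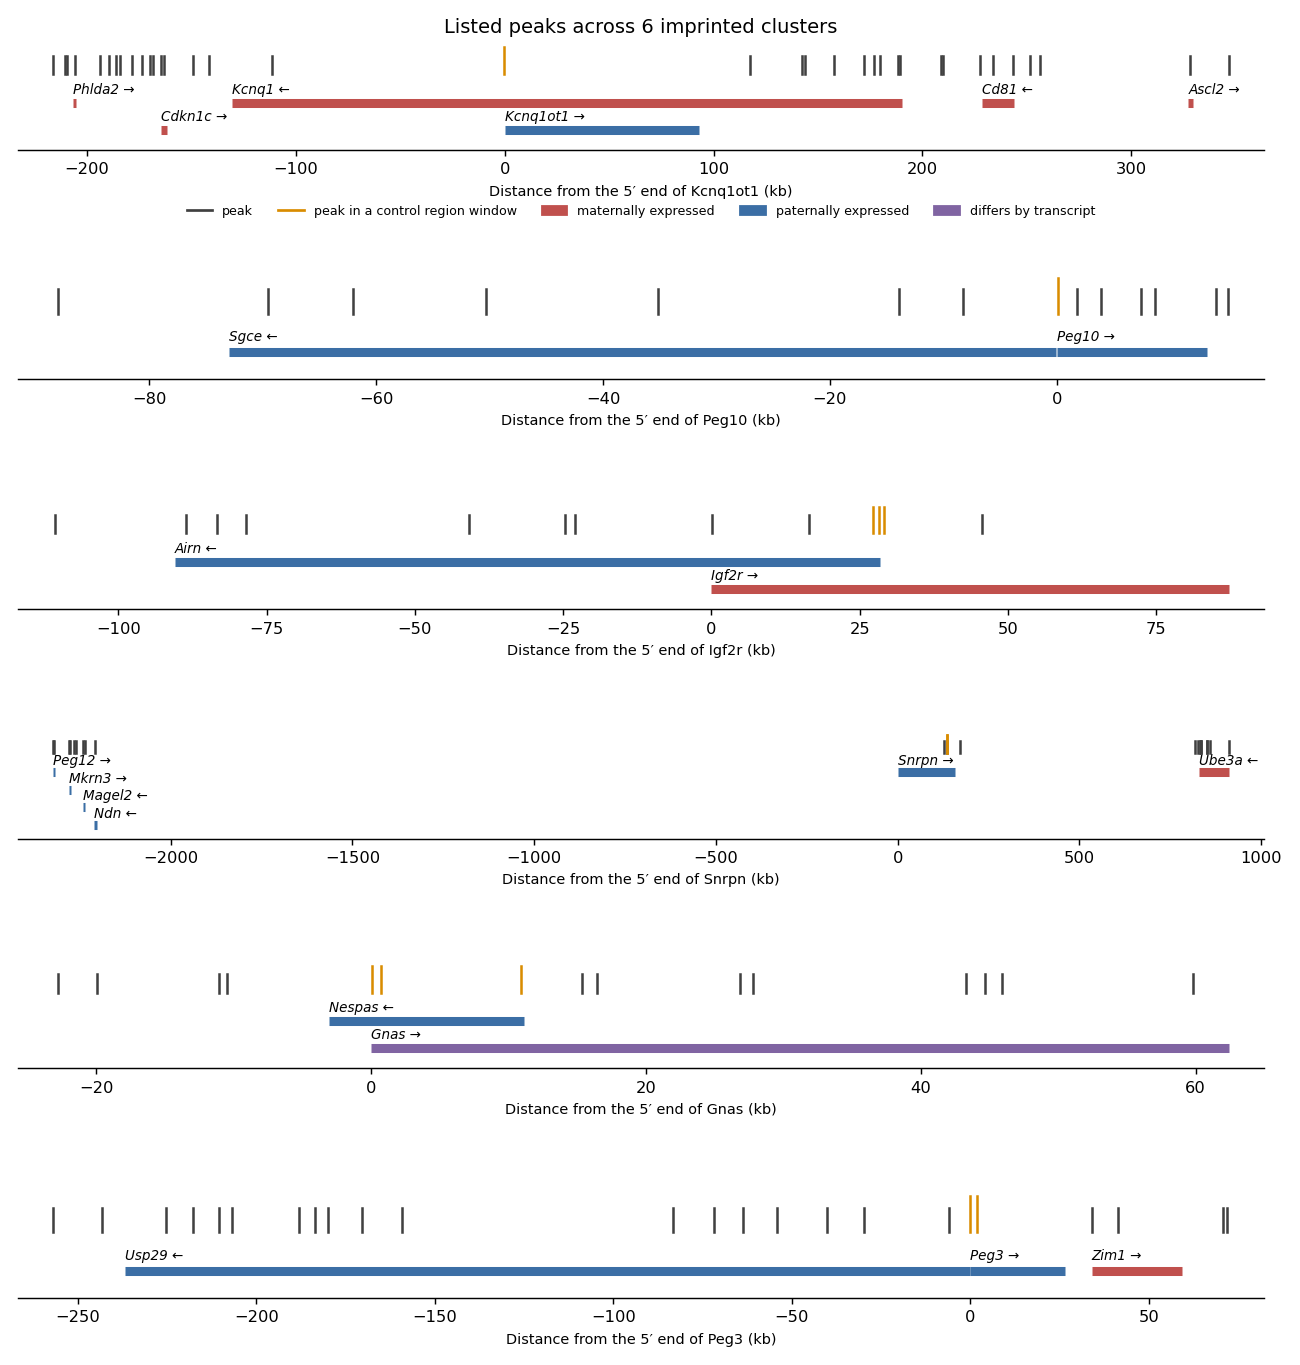
Positions of listed peaks (vertical ticks, drawn only within 20 kb of a member) and imprinted genes (bars with an arrow for the direction of transcription) in 6 clusters, as distance in kb from the 5′ end of the gene named under each axis. Ticks in control region windows are taller and orange. The start of Kcnq1ot1 carries the 1 peak of its 93.1 kb, and at Igf2r the 3 Airn start peaks lie inside Igf2r.

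In the H19 and Igf2 cluster 5 peaks were within 20000 bp of a member, all of them at Igf2, and 1 more lay between the genes, farther from both. Igf2, the insulin-like growth factor gene that is paternally expressed, had 5 peaks. Among them was one of 2225 bp at chr7:142658980-142661204, over an internal annotated start. H19, a maternally expressed long non-coding RNA gene, had 0. In the Dlk1 and Meg3 cluster, which spans 828.3 kb, 9 peaks were within 20000 bp of a member and 13 more lay between the members, farther from them. Dlk1, a Notch-like ligand gene, had 3 peaks with one of 1113 bp at its start, and Dio3, the deiodinase gene at the far end, had 5, of which 4 were at its starts. Meg3, Rtl1 and Rian had 0, and 296.0 kb between Dlk1 and the peak next to Mirg had no listed peak.

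Genes of opposite imprint lay over the same peaks in some clusters. Igf2r, the receptor that removes IGF2 and is maternally expressed, had 6 peaks, and all 6 also counted for Airn, the paternally expressed antisense RNA that runs through it. Of these 6, 3 were at the starts of Airn (243, 668 and 424 bp) and 1, of 1176 bp, was at the start of Igf2r. Airn had 13 in all. Gnas, which encodes the stimulatory G protein alpha subunit and related proteins, and its antisense transcript Nespas had 14 and 11 peaks with 10 in common, and the widest, of 1681 bp, was at the Nespas start (chr2:174294419-174296099) and held 3 hexamers. A further group of 3 Gnas start-site peaks, between chr2:174327106 and chr2:174330857, was 940, 800 and 1299 bp wide with 2 hexamers in each.

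Pairs of paternally expressed genes also shared starts. Peg10, a retrotransposon-derived gene required in the placenta, and Sgce, the epsilon-sarcoglycan gene, are divergently transcribed, and the 888 bp peak chr6:4746977-4747864 covered the starts of both. They had 9 and 14 peaks, with all 9 of Peg10 counted for Sgce. Peg3 had 5 and Usp29 had 20 peaks, with 3 in common, 2 of them at starts of both. Usp29 spans 236.6 kb, and a stretch of 75.5 kb inside it had no listed peak. Zim1, the maternally expressed zinc finger gene of this cluster, had 4 peaks, 2 of them also counted for Peg3.

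In the Snrpn and Ube3a cluster, which spans 3236 kb, 23 peaks were within 20000 bp of a member and 14 more lay farther from the members. Ube3a, which is imprinted in neurons, had 9 peaks and Snrpn 5, while the small intronless genes Mkrn3, Magel2, Peg12 and Ndn had 4, 3, 2 and 1. Start-site peaks were listed at Mkrn3 (1136 bp), Magel2 (809 bp) and Peg12 (1463 bp). The longest stretch with no listed peak in this cluster was 581.4 kb, between Ube3a and Snrpn.

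The paternally expressed genes that lie within an intron of another gene had 1 start-site peak each. Nap1l5, a retrogene within Herc3, had a 575 bp peak (chr6:58906678-58907252) with 5 hexamers, 4 of them in its central 300 bp. Zrsr1, a splicing factor retrogene within Commd1, had a 1445 bp peak (chr11:22971672-22973116) with 0 hexamers, and Nnat, the neuronatin gene within Blcap, a 380 bp peak 219 bp from its nearest start. Totals within 20000 bp were 3, 8 and 4 peaks. Impact, a translation regulator gene, had 8 peaks, 4 of them in its window, and one of these, 1826 bp wide and in an intron, held 5 hexamers.

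The 8 genes whose imprint is restricted to some tissues or isoforms ranged from 2 to 20 peaks, and among the others Usp29 also had 20. Ascl2, Cd81 and Ube3a had 2, 7 and 9, as given above. Trappc9, a trafficking complex subunit gene of 471.6 kb, had 20 peaks and Ddc, a decarboxylase gene, had 17, while Grb10 had 11, Inpp5f, a phosphatase gene, 9, and Kcnk9 3. With lengths taken into account these came to 0.391, 1.37, 0.742, 0.719 and 0.352 per 10 kb. Internal starts of Grb10 and Inpp5f, where their control regions are known to lie, also had peaks: chr11:12025398-12026764 in Grb10 was 1367 bp wide with 4 hexamers, and chr7:128687783-128688218 in Inpp5f was 436 bp wide with 3. Slc38a4, an amino acid transporter gene outside this restricted set, had 13 peaks and a start-site peak of 1344 bp.

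The 242 peaks lay more often near starts and in genes than listed peaks did in general; the rule selects for this. Promoter-proximal peaks made up 87 of them, beside 25.1% of all listed peaks, and 58.7% were centred in an intron. Their median width was 435 bp, beside 415 bp. A match to the CTCF consensus (either strand, up to 1 mismatch) was in the central 300 bp of 27 of 242, or 11.2% (7.78 to 15.7%), beside 10.6% of all listed peaks. Matches to this consensus were mostly distal. Of the 155 distal peaks 25 had one (16.1%, 11.2 to 22.7%), beside 12.2% of all distal peaks, and of the 87 promoter-proximal peaks 2 had one, beside 5.93% of all such peaks. In the central 300 bp, 0 of the 63 start-site peaks had one (Wilson interval up to 5.75%), and over whole peaks 3 of the 63 did. This consensus has 0 matches in the H19 window, where the consensus of the H19 sites has 4. With the latter, whole peaks gave the opposite split, with matches in 4 of the 87 promoter-proximal peaks (4.6%) and in 0 of the 155 distal ones, beside 3.35% and 0.313% of all such peaks. For peaks narrower than 300 bp the searched part reaches beyond the peak.

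The CTCF matches were found at 14 genes, among them Mirg, with 4 peaks each at Kcnq1 and Trappc9, and 3 each at Cdkn1c, Usp29 and Ddc. No background over all genes was computed for this count. The named genes also had many peaks, with 20 each at Trappc9 and Usp29, 17 at Ddc, 15 at Kcnq1 and 9 at Cdkn1c. The Mirg count rests on the 258 bp peak next to it, where the match was in the searched 300 bp but not within the peak. The same held for chr7:143116772-143116994 at Kcnq1 and for chr15:73036861-73037007 and chr15:73069092-73069269 at Trappc9. At maternally expressed genes 15 of 90 peaks had a match (16.7%, 10.4 to 25.7%), and at paternally expressed genes 12 of 158 (7.59%, 4.4 to 12.8%). Over whole peaks the gap was smaller, with 14 of 90 (15.6%, 9.5 to 24.4%) and 18 of 158 (11.4%, 7.33 to 17.3%). By either count the intervals overlap, and the 2 sets have 10 peaks in common.

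OCT4 and SOX2 bind together at enhancers of embryonic stem cells through a composite OCT4::SOX2 motif. The consensus searched here rarely matched, both at imprinted genes and over all listed peaks. With a different motif search, the study reported this motif at many of its OCT4- and SOX2-dependent loci. The shares below therefore hold for this search only. With up to 2 mismatches it was in 2 of the 242 peaks, or 0.826% (0.227 to 2.96%), beside 0.273% of all listed peaks and 0.156% of promoter-proximal ones. One was a 980 bp peak between Kcnq1 and Cdkn1c, chr7:143437565-143438544, which also held 3 hexamers, and the other a 671 bp peak at Peg12, chr7:62462285-62462955. With at most 1 mismatch the number was 0 of 242.

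Of 30 other imprinted genes within or outside these clusters, 28 had a peak within 20000 bp and 24 a start-site peak, with a median of 5.5 peaks, beside 87.3% and 70.4% of all protein-coding genes and their median of 5. The genes with 0 peaks were Peg13, a brain-expressed non-coding RNA gene inside Trappc9, and Slc22a2, an organic cation transporter gene that is imprinted in the placenta. All 6 genes for factors that maintain or read imprints (Zfp57, Zfp445, Trim28, Setdb1, Dppa3 and Ctcf) had a start-site peak, as did 70.4% of all protein-coding genes. As a check of the cell type label, 9 of 10 embryonic stem cell marker genes had a start-site peak, with Nanog the exception. All 6 trophoblast markers had one too, so start-site peaks in this list do not separate the cell types.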

How the data were processed

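The deposited file holds 3 columns that give the position of each merged peak, and no value per library. Per the study's methods, the authors aligned reads to GRCm38 with STAR 2.6.1c, removed duplicates with Picard, kept only autosomes, X and Y, called peaks with MACS2 in paired-end mode and merged those of the dox-treated experiments with bedtools. Whether peaks were called per library is not given in the sources used here. The methods also name removal of peaks over 5000 bp, of peaks called in input and of blacklisted regions. The list still has 7 peaks over 5000 bp, none at an imprinted gene, and the other removals were not tested. The replicates are described as biological duplicates.

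Peaks were matched to GENCODE M21 genes and starts, and sequence was read from the GRCm38 reference, with Python 3.11.15, numpy 2.4.6 and pandas 2.3.3. Intervals of shares are Wilson intervals (statsmodels 0.14.6) and intervals of medians are order-statistic intervals, both at 95%, and they cover counting error only. Overlap counts and motif searches were tested on simulated data. Motifs were searched on both strands in the central 300 bp of peaks unless whole peaks are named, and the CTCF and OCT4::SOX2 consensus sequences contain ambiguous letters and are given by name. The text names all 41 members, and genes of the other lists where they had no peak, host a member or read imprints. Nanog is named as the marker with no start-site peak. Some of these genes were chosen after their values were seen. The members and lists were chosen with earlier results of these data known. The depth of the libraries is not given in this file, and the planned limma comparison of MD-OCT4 with MD*-OCT4 was not run because it needs values per library.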

Additional observations from a re-analysis of the deposited data

How the results depend on the processing

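Of 49 alternatives computed, 39 kept the direction of the difference, or left the value within its interval or within 1.5 times the count. The difference in median peaks between maternally and paternally expressed genes (+1) did not keep its sign. It was -1 with overlapping peaks only, -1 with each peak given to the nearest gene only, -1 without the 8 restricted genes and -0.28 per 10 kb, and it was 0 at a distance of 10000 bp and with peaks of at least 300 bp. The difference in the share of genes with a start-site peak (-14.7 percentage points) became 1.33 with the 5′ end only and -31.4 without the restricted genes (5 of 9 against 20 of 23). The median of 5 peaks per gene became 2 with overlapping peaks only. The share with a CTCF match (11.2%) became 4.55% with 0 mismatches, 26.9% with 2 mismatches and 0% with the consensus of the H19 control region sites, beside 3.17%, 24.6% and 0.513% of all listed peaks. The OCT4::SOX2 share (0.826%) became 0% with 1 mismatch. In these cases the cause was not tested beyond the change of rule itself.

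The internal starts of Gnas, Grb10 and Inpp5f were added as control regions after seeing the data, which gave 14 of 18 regions with a peak and the hexamer in 12 of 31 peaks (38.7%). No paired analysis was possible because single libraries have no values here, so the fits with and without the replicate block and without replicate 1 or 2 were not run. Read depth limits which regions enter the list, and its effect on these counts could not be measured.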
